A study of Rattus norvegicus with 24 samples.

Results

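Recellularized rat liver constructs sampled on day 28 were compared with constructs sampled on day 2, and each change was read against the level of the same gene in cadaveric liver. The 7 samples were the 3 constructs labelled day 28 and the 4 labelled day 2, of 19 samples in the series, chosen by their titles alone. All constructs were caudate lobes of rat livers that had been stripped of their cells by detergent perfusion and reseeded with rat liver cells. The study's methods name Sprague Dawley rats of 13 to 28 weeks as the source of livers and cells. Constructs of both days were perfused with Williams' Medium E containing 10% fetal bovine serum, 10 µg/mL insulin and 1 µM dexamethasone, and the labels list no further treatment. Cadaveric liver (n = 4), stored after harvest, served as the level to which changes were referred, and freshly isolated hepatocytes (n = 4) and day 15 constructs (n = 4) are quoted where they place a value. The labels do not say whether the constructs came from separate donors or seedings, so the p-values cover only how far these samples differed from each other, which may be technical. The seeded cells were a collagenase isolate, filtered and spun through 40% Percoll at low speed to remove dead cells, which the study calls parenchymal. Other liver cell types were not sorted out of it, and in such bulk RNA fewer cells of a type and less RNA per cell cannot be told apart.

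Hepatocytes make most plasma proteins, synthesize bile acids from cholesterol, convert ammonia to urea and detoxify drugs, and they keep a large secretory endoplasmic reticulum (ER) and many ribosomes for this work. Cells released by collagenase and put into culture commonly switch on stress and growth programs and lose part of their adult program. Stellate cells and fibroblasts, the matrix-forming cells of the liver, can become contractile myofibroblasts under transforming growth factor beta (TGF beta), depositing collagen and other matrix proteins.

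RNA was measured on RatRef-12 BeadChips, with 5 arrays for the 3 day 28 constructs and 6 for the 4 day 2 constructs, and arrays of 1 construct were averaged. Values are log2 expression after background correction and quantile normalization, and 8753 genes with a probe detected on at least 3 of the 16 construct arrays were tested. Between 49.4% and 50.7% of probes were detected on the day 28 arrays and between 45.4% and 47% on the day 2 arrays. The day 2 constructs stood in pairs, with correlations across genes of 0.9946 between constructs 1 and 2 and 0.9948 between constructs 3 and 4, against 0.9897 to 0.9923 across the pairs. The day 28 constructs correlated at 0.9865 to 0.9911. List counts of 5 or more that fell or grew by more than 1.5 times without a construct or without 1 of these pairs are named where they are given, and counts under 5 often changed by 1 to 3 genes.

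Most of the genes tested differed between day 28 and day 2. Limma called 4806 of 8753 genes at an adjusted p under 0.05, or 54.9%, with 1894 higher on day 28 (21.6%) and 2912 lower (33.3%). Large changes ran the other way, since 925 genes were at least 2-fold higher on day 28 and 467 at least 2-fold lower. The day 28 and day 2 values did not overlap for 1792 of the genes called higher and 2751 of those called lower, against 5106 (58.3%) of all genes tested. The median change over all genes was -0.14 on the log2 scale. The counts of members called in the lists are to be read against these shares.

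The direction relative to cadaveric liver was read from 2 further contrasts, the gap of the day 2 constructs and the gap of the day 28 constructs from the 4 cadaveric livers. A change was called toward the cadaveric level when it ran against a called day 2 gap, and away when it widened a called day 2 gap or left a called day 28 gap where none was called on day 2. These contrasts share the day 2, day 28 and cadaveric samples, so the classes are descriptions. Of the genes that rose, 859 moved toward the cadaveric level and 948 away from it, and 87 had no called gap on either day. Of the genes that fell, 1770 moved toward and 889 away, and 253 had no called gap. Among the genes that rose toward cadaveric liver, 298 remained short of it, 328 ended with no called gap and 233 were called past it, of which 103 ended nearer than they began. Among the genes that fell toward it, 567 stayed above, 1048 ended with no called gap and 155 were called below it.

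**Figure D1:**
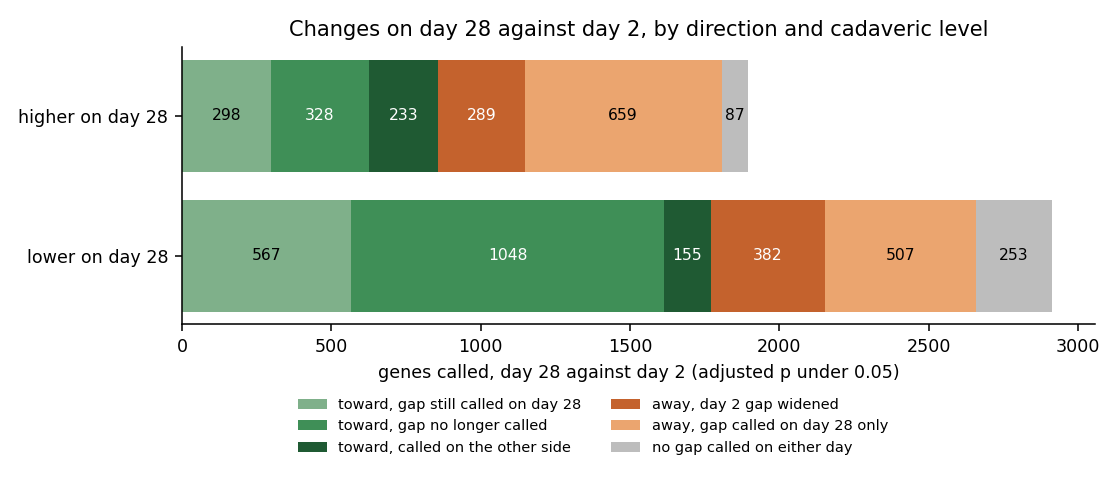
Genes called in the day 28 against day 2 comparison (horizontal axis, number of genes), split by direction and by what became of their gap to the mean of 4 cadaveric livers. Toward classes (greens) hold 1770 of the 2912 genes that fell and 859 of the 1894 that rose; away classes (oranges) hold 889 and 948.

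Seen over all genes, the constructs of both days lay at a similar distance from cadaveric liver. The median absolute log2 difference of a construct from the cadaveric mean was 0.461, 0.413 and 0.409 on day 28, against 0.445, 0.45, 0.483 and 0.473 on day 2, and the ranges overlapped. The means were 0.428 ± 0.029 on day 28 and 0.463 ± 0.018 on day 2 (SD, n = 3 and 4; two-sided exact permutation p = 0.171, where 0.0571 is the smallest p that 35 splits allow). The median counts small and large gaps alike, and the root mean square, which weighs large gaps, was higher on day 28 than on day 2 by 0.0744. Isolated hepatocytes lay at 0.229. Of the 8753 genes, 4499 were nearer to the cadaveric mean on day 28 than on day 2.

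Gene lists of liver pathways, cell complexes and cell types were counted in the same comparison. The lists with the highest shares of members lower on day 28 were ribosome biogenesis, the mitochondrial ribosome, ER folding and splicing, and, the small lists of cell type markers apart, those with the highest shares higher were matrix proteins, cell adhesion receptors, collagens, TGF beta signaling and glycolysis. Lists of liver functions such as bile acid synthesis, complement and nuclear receptors held members that moved both ways.

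**Figure D2:**
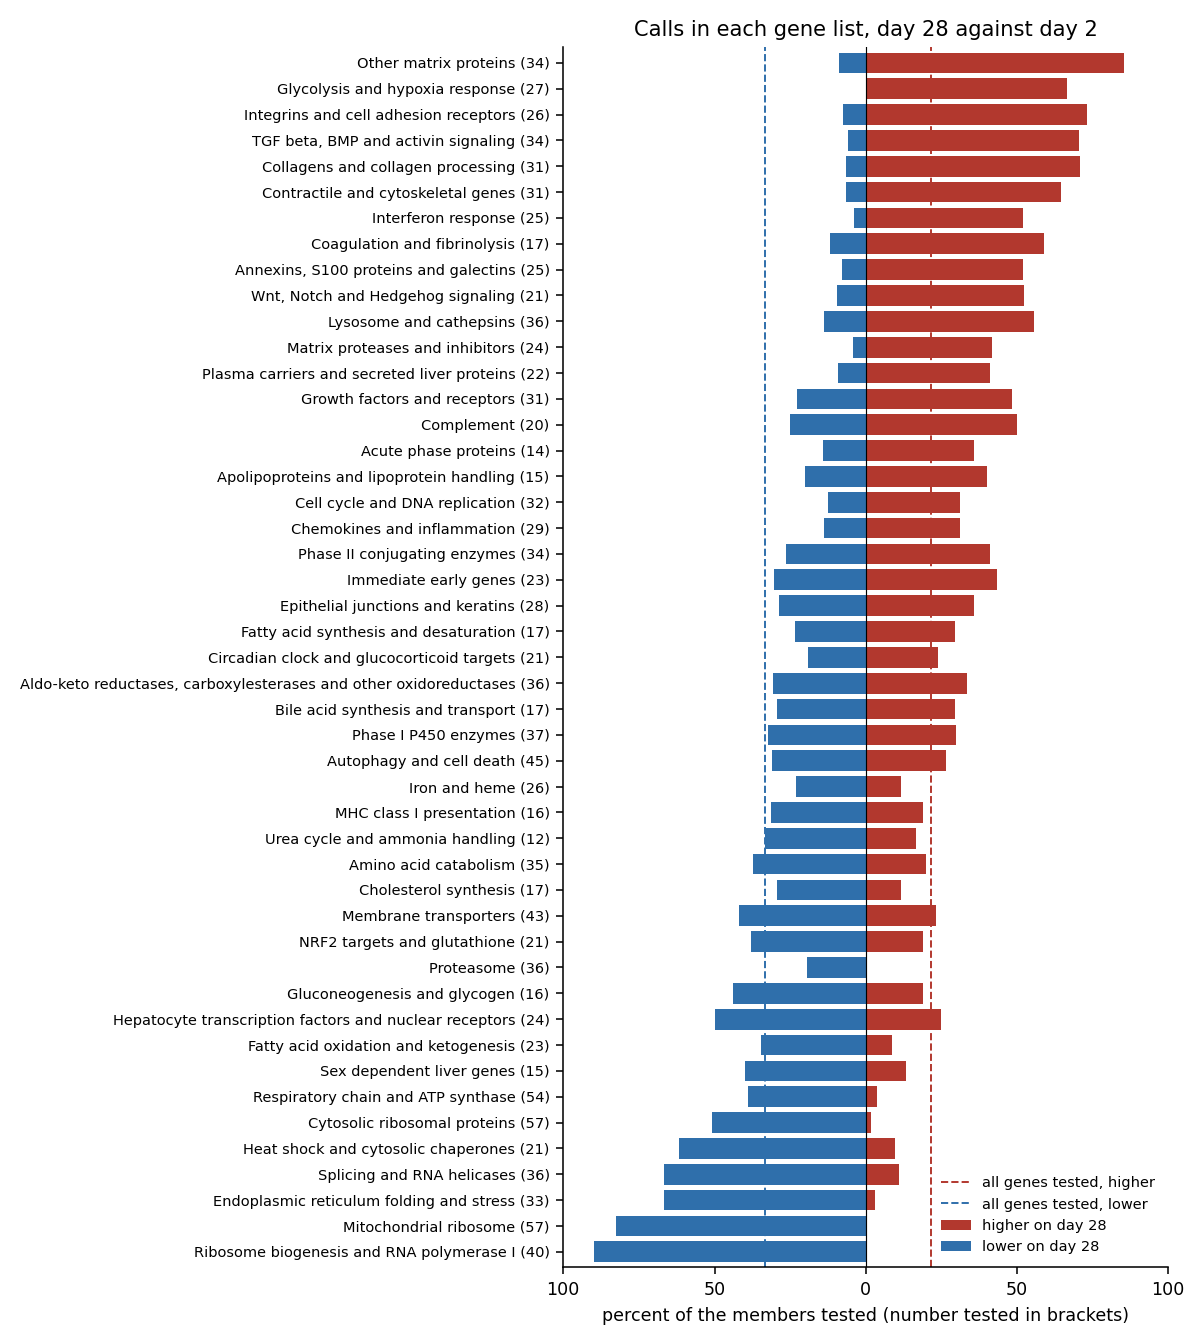
Percent of the tested members of each gene list that limma called higher (red, to the right) or lower (blue, to the left) on day 28 than on day 2, with the number tested in brackets. Dashed lines mark all 8753 genes tested, 21.6% higher and 33.3% lower. Ribosome biogenesis has 36 of 40 members lower, and other matrix proteins have 29 of 34 higher.

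Genes that fold and check secreted proteins in the ER were lower on day 28 and moved toward the cadaveric level. Of 33 ER folding and stress genes tested, 22 fell and 1 rose, with a median change of -0.57 against -0.14 over all genes. The 22 that fell included 21 that moved toward cadaveric liver, and the median gap of the list was 0.27 on day 28 and 0.87 on day 2. Derl3, which helps to draw misfolded proteins out of the ER, had levels of 5.91, 6.29 and 7.57 on day 28, against 10.32, 10.36, 10.29 and 10.11 on day 2 and a mean of 5.47 in cadaveric liver. Every day 28 construct was below every day 2 construct, with construct 3 the highest of its day. The change was -3.68 ± 0.46 (SE, limma adjusted p = 6.0e-05). Creld2, an ER stress responsive chaperone partner, stood at 9.83, 10.11 and 10.67 on day 28, against 12.21, 12.11, 11.90 and 11.46 on day 2, a change of -1.72 that left no called gap to cadaveric liver. Hspa5, the ER chaperone BiP, measured 13.997, 14.01 and 14.42 on day 28, against 14.69, 14.72, 14.86 and 14.73 on day 2, near the brightest log2 value of these arrays, 14.96, where changes are compressed. Its change of -0.60 still separated the days.

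Among the other members of this quality control pathway, Sdf2l1, a component of the ER chaperone complex, was 6.57, 6.58 and 6.95 on day 28, against 9.10, 8.77, 8.91 and 8.48 on day 2, and passed below the cadaveric mean by 0.60. Herpud1, which organizes ER-associated degradation, was 11.76, 11.98 and 12.17 on day 28, against 13.30, 13.26, 13.37 and 13.27 on day 2. Sel1l, the partner of the ubiquitin ligase that tags ER proteins, was the member that fell away from the cadaveric level, to 8.33, 8.31 and 8.76 on day 28, against 9.70, 9.80, 10.17 and 10.33 on day 2. It ended 1.35 below cadaveric liver, with no called gap on day 2.

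Promoters of these genes are shown because the list moved as a group and its members are known for a shared control element. This is the ER stress response element (ERSE), to which NF-Y and the stress factor ATF6 bind. The element was searched as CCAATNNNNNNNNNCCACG and its second form, ERSE-II, as ATTGGNCCACG, on both strands of the 250 bases before and 50 bases after each gene's start in RefSeq (build GRCr8). The motifs were chosen with the values of the list known. The list holds genes already known for this element, so a high share among them was set in advance. ERSE was found in 8 of 29 list members with a promoter (27.6%) and ERSE-II in 3 of 29 (10.3%), against 22 (0.0657%) and 17 (0.0508%) of 33469 promoters of all genes, and 14 (0.192%) and 9 (0.124%) of the 7287 tested genes with a promoter. Of the 11 members with either form, 10 were lower on day 28 and 1, Xbp1, was not called. Of all 23 tested genes with either form, these members included, 16 were lower, 5 higher and 2 not called. Capitals mark the element, written 5′ to 3′ along the gene.
Derl3 (chr20:12766561-12766659, minus strand): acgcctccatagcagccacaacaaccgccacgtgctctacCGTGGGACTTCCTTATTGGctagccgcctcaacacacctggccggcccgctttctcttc
Creld2 (chr7:121789199-121789297, plus strand): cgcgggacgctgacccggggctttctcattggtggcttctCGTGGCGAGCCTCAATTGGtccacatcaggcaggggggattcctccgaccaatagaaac
Hspa5 (chr3:38452933-38453015, plus strand): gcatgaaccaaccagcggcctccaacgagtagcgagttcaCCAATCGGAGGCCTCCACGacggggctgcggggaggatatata
Hsp90b1 (chr7:23012411-23012509, minus strand): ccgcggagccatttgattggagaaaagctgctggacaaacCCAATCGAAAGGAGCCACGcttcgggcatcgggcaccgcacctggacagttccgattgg
Dnajc3 (chr15:102432494-102432592, plus strand): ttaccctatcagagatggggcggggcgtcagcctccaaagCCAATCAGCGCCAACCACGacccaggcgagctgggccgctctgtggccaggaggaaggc
Herpud1 (chr19:10614781-10614871, minus strand): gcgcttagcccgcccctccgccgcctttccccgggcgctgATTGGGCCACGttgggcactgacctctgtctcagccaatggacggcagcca
Hyou1 (chr8:53602754-53602844, plus strand): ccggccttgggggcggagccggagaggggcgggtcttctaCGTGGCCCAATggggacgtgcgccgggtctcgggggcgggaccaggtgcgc
Xbp1 (chr14:84604518-84604616, plus strand): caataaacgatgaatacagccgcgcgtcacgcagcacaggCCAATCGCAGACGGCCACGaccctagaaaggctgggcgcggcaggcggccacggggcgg

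In Hspa5, Hsp90b1, Dnajc3, Herpud1 and Xbp1 the element above reads forward, and in Derl3, Creld2 and Hyou1 it lies on the other strand and reads as its reverse complement. It ends between 25 bases (Hspa5) and 158 bases (Hsp90b1) before the start of the genes shown. The day 28 minus day 2 change of these genes was -3.68 for Derl3, -1.72 for Creld2, -1.33 for Herpud1, -1.32 for Hyou1, -0.67 for Dnajc3, -0.60 for Hspa5 and -0.41 for Hsp90b1, and 0.22 for Xbp1, which did not pass the test. A match is a run of letters and was not tested for binding.

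The machinery that makes ribosomes was lower on day 28 in nearly every member measured. Of 40 ribosome biogenesis and RNA polymerase I genes, 36 fell and none rose, with a median change of -0.82. All 36 moved toward the cadaveric level. 19 stayed above it, 15 ended with no called gap and 2 passed below, and the median gap was 0.37 on day 28 and 1.13 on day 2. Npm1, the nucleolar chaperone nucleophosmin, was 11.48, 11.56 and 11.52 on day 28, against 12.74, 12.67, 12.82 and 12.68 on day 2 and a mean of 11.64 in cadaveric liver (limma adjusted p = 4.7e-06). Bop1, needed to process the large subunit RNA, was 7.55, 7.75 and 7.70 on day 28, against 8.70, 8.79, 8.89 and 8.82 on day 2. Ebna1bp2, another large subunit assembly factor, was 8.79, 8.87 and 8.83 on day 28, against 10.25, 10.04, 10.10 and 9.88 on day 2. In these 3 genes the constructs of each day lay close together and the days did not overlap. Myc, the transcription factor known to drive ribosome production, fell by 0.92, with levels of 10.00, 10.09 and 10.03 on day 28, against 10.87, 10.94, 11.08 and 10.97 on day 2, and stayed 0.91 above the cadaveric mean.

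Myc binds the E-box CACGTG, a palindrome that reads the same on both strands, and TFEB, a regulator of lysosomal genes, binds a longer motif with the same core. This motif, too, was chosen with the values of the ribosome biogenesis and lysosomal lists known. Both lists hold genes of processes that these factors are known to control, so a high share in them was set in advance. The E-box was found in the promoter window of 11 of 36 ribosome biogenesis genes (30.6%), all lower on day 28, and of 8 of 29 lysosomal genes (27.6%), of which 5 were higher, 1 lower and 2 not called. It occurred in 2148 of all 33469 promoters (6.42%) and in 693 of the 7287 tested genes with a promoter (9.51%). Of those 693 genes, 297 were lower on day 28, 109 higher and 287 not called. In the whole ribosome biogenesis list, with or without an E-box, 36 of 40 members fell. Whether the E-box had a part in these changes was not tested. Below are 2 promoters of ribosome biogenesis genes that fell and 2 of lysosomal genes that rose, with the E-box in capitals. They were picked by their direction, so the contrast between them comes from the choice.
Mybbp1a (chr10:57555262-57555347, plus strand): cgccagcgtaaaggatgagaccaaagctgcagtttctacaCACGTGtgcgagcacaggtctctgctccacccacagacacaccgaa
Utp20 (chr7:25102931-25103016, minus strand): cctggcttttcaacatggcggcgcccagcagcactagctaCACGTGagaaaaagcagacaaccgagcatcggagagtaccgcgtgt
Ctsd (chr1:206968933-206969018, minus strand): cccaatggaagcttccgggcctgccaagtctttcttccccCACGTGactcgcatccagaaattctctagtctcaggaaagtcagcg
Glb1 (chr8:122963578-122963663, plus strand): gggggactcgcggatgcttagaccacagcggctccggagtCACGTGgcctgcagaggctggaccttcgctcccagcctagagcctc

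**Figure D3:**
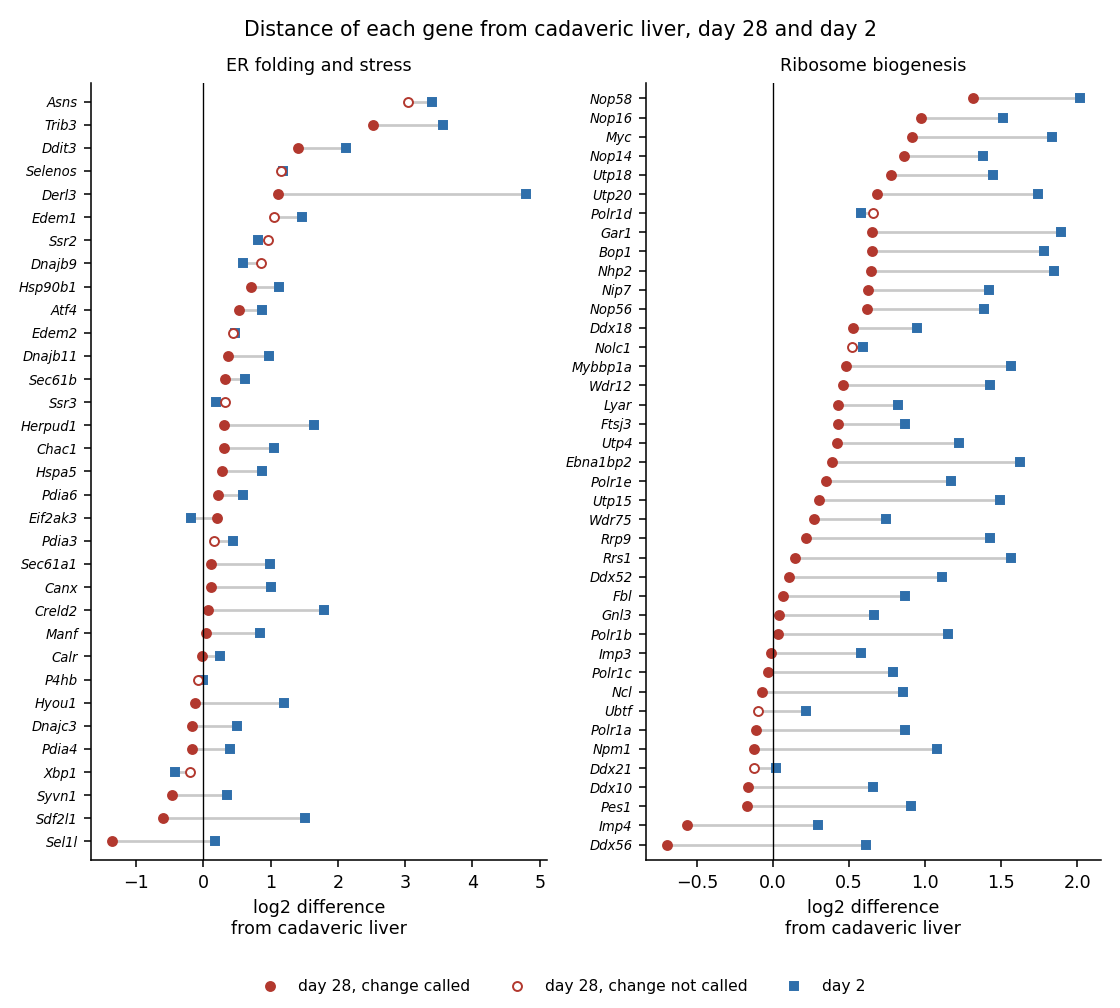
Log2 difference of each gene from the mean of 4 cadaveric livers (vertical line at 0) for 33 ER folding genes and 40 ribosome biogenesis genes, on day 28 (red circles, filled where the change from day 2 was called) and on day 2 (blue squares). Most circles lie nearer to 0 than their squares, with a median gap of 0.27 against 0.87 in the ER list and 0.37 against 1.13 in ribosome biogenesis.

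Further parts of the protein synthesis and RNA machinery were also lower on day 28, but differed in where they ended. Of 57 mitochondrial ribosome genes, 47 fell and none rose (median change -0.52), and 31 of them moved toward the cadaveric level and 16 away. Mrpl19, a large subunit protein of the mitochondrial ribosome, was 7.03, 7.32 and 7.17 on day 28, against 8.25, 8.56, 8.42 and 8.29 on day 2, and passed below the cadaveric mean by 0.58. Of 36 splicing genes, 24 fell and 4 rose (median change -0.42), and 20 of the 24 toward changes ended with no called gap. The splicing regulator Srsf10 was 6.96, 6.95 and 7.08 on day 28, against 8.61, 8.51, 8.55 and 8.53 on day 2 and a mean of 6.86 in cadaveric liver. Sf3b1, a core splicing factor, rose by 1.05.

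Of 57 cytosolic ribosomal proteins, 29 fell and 1, Rpl15, rose (median change -0.26). Fewer members fell when a library was left out, 17 without day 28 construct 1, 18 without day 28 construct 2 and 19 without day 2 construct 1 or without day 2 constructs 1 and 2. Their copies and pseudogenes are near-identical, so a probe may report more than 1 gene. Of 54 genes of the respiratory chain and ATP synthase, 21 fell and 2 rose (median change -0.21; 13 fell without day 2 constructs 3 and 4), and 14 of the 19 changes with a class moved away from the cadaveric level. Sdhb, a subunit of succinate dehydrogenase, fell by 0.60 and ended 0.52 below cadaveric liver. Of 36 proteasome genes, 7 fell and none rose, a share of lower calls below that of all genes, and 13 fell when each array was centred on its median. Of 21 heat shock and cytosolic chaperone genes, 13 fell and 2 rose (7 fell without day 2 constructs 3 and 4), and Cryab, a small heat shock protein, rose by 1.63.

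Genes of bile acid synthesis did not move as one. Cyp7a1, the rate-limiting enzyme of the classical pathway, was 5.49, 6.64 and 5.20 on day 28, against 10.81, 10.28, 10.23 and 10.71 on day 2 and a mean of 12.88 in cadaveric liver. The change was -4.73 ± 0.41 (SE, limma adjusted p = 6.2e-06) and widened a gap that was already called on day 2. Cyp8b1, which adds the hydroxyl group that makes cholic acid, was 10.97, 11.74 and 11.98 on day 28, against 8.25, 8.33, 8.14 and 8.58 on day 2, a rise of 3.24 that stopped 1.76 below cadaveric liver. Cyp7b1, the oxysterol hydroxylase of the alternative pathway, was 8.63, 8.33 and 8.16 on day 28, against 5.08, 4.51, 4.54 and 4.49 on day 2, where 1 of 6 arrays detected it, and ended 1.55 above the cadaveric mean. Over the list 5 of 17 genes rose and 5 fell, 6 of the 10 toward the cadaveric level and 4 away, and 3 fell without day 2 construct 3, without day 28 construct 1 or without day 2 constructs 3 and 4.

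Plasma proteins of the liver that were below the cadaveric level on day 2 were in part regained by day 28. Albumin, the most abundant of them, was 14.66, 14.79 and 14.72 on day 28, against 14.68, 14.76, 14.61 and 14.79 on day 2, close to the brightest value of the arrays, and its levels overlapped between the days (two-sided exact permutation p = 0.857). A second albumin probe gave a change of 0.26. Of 17 coagulation and fibrinolysis genes, 10 rose and 2 fell (median change 0.69), and 8 of the 9 that moved toward cadaveric liver stopped short of it. Serpind1, the thrombin inhibitor heparin cofactor II, was 10.92, 11.79 and 11.74 on day 28, against 9.56, 10.46, 8.94 and 9.55 on day 2 and a mean of 13.99 in cadaveric liver. The days did not overlap, with day 2 construct 2 the highest of its day. F2, prothrombin, rose by 0.74, Klkb1, plasma prekallikrein, by 1.39, and the histidine-rich plasma glycoprotein Hrg by 1.70, all short of the cadaveric level. Selenop, the selenium carrier of plasma, rose by 1.86 and was detected on all 5 day 28 arrays and 2 of 6 day 2 arrays.

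Other carriers of plasma moved in both directions. Transthyretin (Ttr), which carries thyroid hormone and retinol, was 14.78, 14.65 and 14.84 on day 28, against 13.87, 14.12, 14.24 and 14.47 on day 2, and reached the cadaveric level. Serpina6, the corticosteroid binding globulin, was 5.84, 5.14 and 5.57 on day 28, against 8.63, 9.36, 9.57 and 10.28 on day 2 and a mean of 14.33 in cadaveric liver. Its change was -3.94, but a second probe of the gene gave -0.34, so the size rests on 1 probe. Apom, a carrier of bioactive lipids, fell by 1.52 and ended 3.94 below cadaveric liver. Lbp, which carries bacterial lipopolysaccharide and belongs to the acute phase proteins, rose by 1.31 to a level 3.43 above cadaveric liver, while C-reactive protein (Crp) fell by 0.82.

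Of 20 complement genes, 10 rose and 5 fell, with 11 changes toward and 4 away. 6 rose without day 28 construct 2, without day 28 construct 3, or without day 2 constructs 3 and 4. C4bpb, a chain of the inhibitor C4b-binding protein, was 11.98, 12.50 and 12.39 on day 28, against 10.13, 10.46, 8.26 and 8.78 on day 2, where constructs 1 and 2 stood above 3 and 4, and rose by 2.88 toward a cadaveric mean of 13.85. Mbl2, the mannose-binding lectin that starts the lectin pathway, was 6.49, 6.70 and 6.93 on day 28, against 9.43, 9.61, 8.96 and 9.26 on day 2, and fell by 2.61, away from a cadaveric mean of 10.95. C8g, of the membrane attack complex, fell away by 1.19. C1qbp, a mitochondrial protein first named for binding C1q, fell by 1.16 to the cadaveric level.

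**Figure D4:**
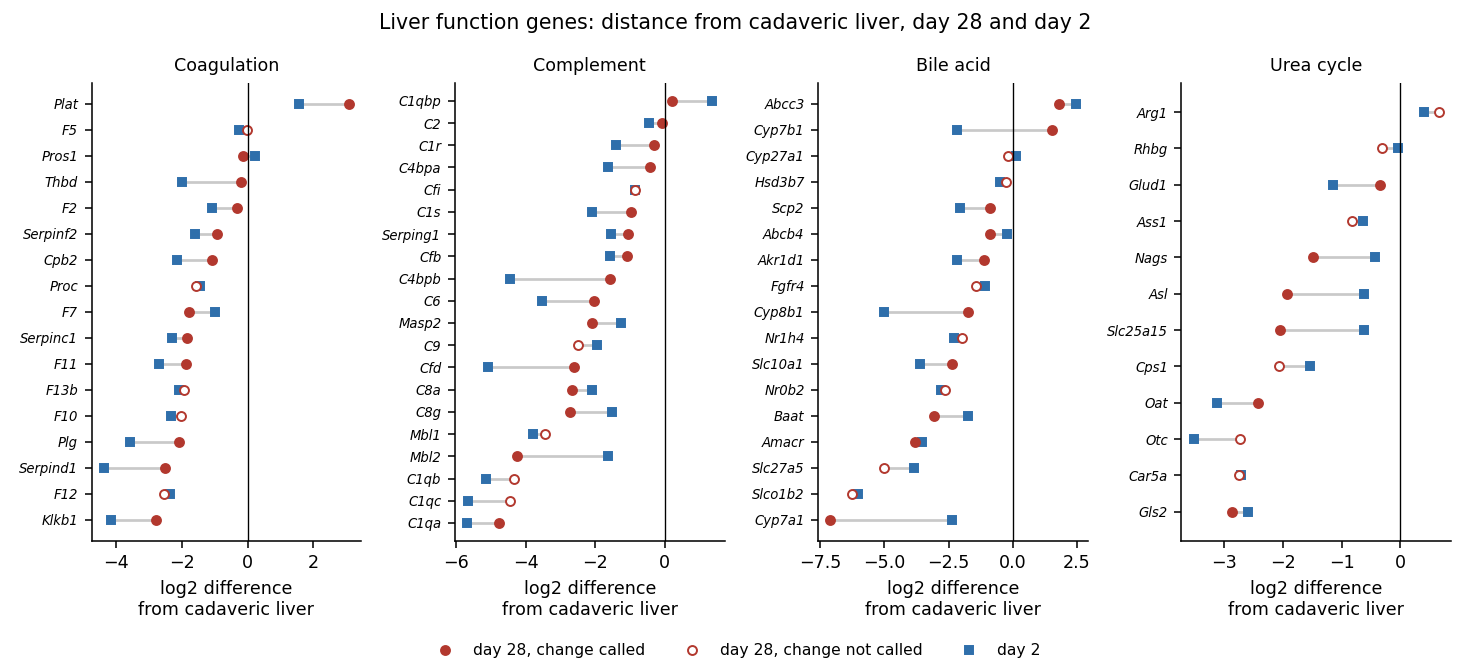
Log2 difference from the mean of 4 cadaveric livers (vertical line at 0) on day 28 (red circles, filled where the change was called) and day 2 (blue squares) for the tested genes of coagulation, complement, bile acid and urea cycle lists. Median gaps were -1.78 on day 28 against -2.10 on day 2 for coagulation, -2.06 against -1.78 for complement, -1.76 against -2.17 for bile acid genes and -2.0 against -0.89 for the urea cycle.

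Genes of nitrogen handling were called lower in about the same share as all genes. In the urea cycle list 4 of 12 genes fell, all away from cadaveric liver, and 2 rose, both toward it (4 rose without day 2 construct 2). Asl, argininosuccinate lyase, was 8.88, 9.18 and 9.19 on day 28, against 10.32, 10.51, 10.49 and 10.29 on day 2 and a mean of 11.02 in cadaveric liver. Slc25a15, the mitochondrial ornithine carrier, fell by 1.44 and Nags, which makes the activator of the first urea cycle enzyme, by 1.06. Glud1, glutamate dehydrogenase, rose by 0.80. Of 35 genes of amino acid catabolism, 13 fell and 7 rose, with 8 changes toward the cadaveric level and 11 away. In this list 4 rose without day 2 constructs 3 and 4, and 7 fell without day 28 construct 1, 8 without day 2 construct 2 or 4, and 6 and 8 without day 2 constructs 1 and 2 or 3 and 4. Kynu, of tryptophan breakdown, and Cth, which makes cysteine, both fell by 1.81, and Agxt, which removes glyoxylate, rose by 1.37.

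Of 16 genes of gluconeogenesis and glycogen, 7 fell and 3 rose (4 fell without day 28 construct 1). Pck1, the cytosolic enzyme that commits carbon to glucose, was 9.90, 9.93 and 10.49 on day 28, against 8.66, 7.84, 8.70 and 8.73 on day 2, and kept a gap of -3.59 to a cadaveric mean of 13.69. Its mitochondrial counterpart Pck2 fell by 1.14 and stayed 1.34 above cadaveric liver, so both enzymes moved toward the cadaveric level from opposite sides. Slc2a2, the glucose transporter of hepatocytes, fell by 0.68 to a called gap of -0.69. Scd2, a fatty acid desaturase, was 12.82, 12.69 and 13.05 on day 28, against 6.11, 6.14, 6.28 and 6.37 on day 2, a rise of 6.63 that carried it 5.34 above the cadaveric mean of 7.52. Fabp1, the liver fatty acid binding protein, rose by 1.45 and stopped 0.62 short.

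Transcription factors of hepatocytes were more often lower than higher on day 28, 12 of 24 against 6, with 10 changes away and 6 toward. Hnf4a, the nuclear receptor at the top of the hepatocyte network, was 5.52, 5.78 and 6.0 on day 28, against 6.67, 7.06, 6.45 and 6.72 on day 2 and a mean of 7.65 in cadaveric liver (change -0.96 ± 0.19, SE, limma adjusted p = 0.0013). Nr1i3, the drug sensor CAR, fell by 1.26 and passed below the cadaveric level by 0.56. Gata4, a factor of early liver and of several other tissues, was 9.07, 8.65 and 8.54 on day 28, against 5.96, 5.89, 6.32 and 6.39 on day 2, and ended 0.65 above the cadaveric mean of 8.11. Dio1, the deiodinase that activates thyroid hormone, was 8.54, 8.70 and 9.21 on day 28, against 11.997, 11.79, 11.56 and 11.88 on day 2, and its fall of 2.99 led away from a cadaveric mean of 12.59. Among P450 enzymes, which metabolize drugs and steroids, 11 of 37 rose and 12 fell, shares not far from those of all genes, with 15 changes away and 7 toward. Cyp3a2, a P450 of the adult male rat liver, was 12.62, 13.09 and 13.36 on day 28, against 6.93, 5.81, 5.60 and 5.18 on day 2 and a mean of 5.05 in cadaveric liver. Cyp1b1, a P450 found mainly outside hepatocytes, was 11.77, 10.75 and 10.91 on day 28 and undetected on every day 2 array, at least 69.3-fold higher. Both rose away from the cadaveric level, while Cyp3a18 rose by 2.72 to it. Cyp3a9 was 5.59, 5.26 and 5.79 on day 28, against 7.15, 7.46, 9.48 and 9.76 on day 2, and Cyp2f4 fell by 2.23, both away from cadaveric liver. Cyp2c7 fell by 3.44, but its adjusted p was 0.0583 without day 2 constructs 3 and 4. P450 genes of 1 subfamily share long stretches, so a probe may report a close relative.

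Of 43 membrane transporters 10 rose and 18 fell. Abcg5, of the pump that sends cholesterol into bile, was 11.14, 11.01 and 11.47 on day 28, against 7.99, 8.16, 8.21 and 8.04 on day 2, and ended 0.85 above the cadaveric mean. Abcg1, which exports cholesterol to lipoproteins, rose by 5.39, and Scarb1, the receptor that takes up cholesterol from high-density lipoprotein, rose by 1.25 to the cadaveric level. Slc38a4, an amino acid importer, fell by 1.47 and passed below cadaveric liver by 0.65.

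Matrix genes were among the genes with large changes, and many passed the cadaveric level. Of 31 collagen and collagen processing genes, 22 rose and 2 fell (median change 3.72), and 12 of the 14 that moved toward cadaveric liver were called past it. The median gap was 2.5 on day 28 and -0.69 on day 2. Col1a2, a chain of collagen I, was 14.54, 14.13 and 13.75 on day 28, against 7.35, 7.30, 5.38 and 6.25 on day 2 and a mean of 11.64 in cadaveric liver. Col1a1, the other chain, was 8.75, 8.45 and 7.78 on day 28 and above background on none of the 6 day 2 arrays, so it was at least 9.83-fold higher on day 28. Such bounds set the mean of the detected group against the lowest value called detected on the arrays of the other. Pcolce, which speeds procollagen cleavage, was likewise at least 34.1-fold higher. Of 34 other matrix proteins, 29 rose and 3 fell (median change 3.23). Mgp, the matrix Gla protein that restrains calcification, was 13.26, 13.34 and 12.86 on day 28, against 5.21, 5.26, 4.54 and 4.45 on day 2, where 3 of 6 arrays detected it, and 9.86 on average in cadaveric liver. The proteoglycan osteomodulin (Omd) fell by 2.22, and stayed 1.82 above cadaveric liver.

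The TGF beta family and its inhibitors rose with the matrix. Of 34 genes of TGF beta, BMP and activin signaling, 24 rose and 2 fell (median change 1.28), with 13 changes toward the cadaveric level and 12 away. Tgfb2, a ligand, was 9.40, 9.35 and 9.10 on day 28, against 7.77, 7.28, 7.22 and 7.51 on day 2 and a mean of 5.73 in cadaveric liver, so a level already above liver rose further. Smad6, an intracellular inhibitor of BMP signals, was 8.0, 7.97 and 8.08 on day 28 and undetected on every day 2 array, at least 7.95-fold higher. Fstl1, a secreted binding protein of the family, was 14.06, 13.39 and 13.01 on day 28, against 6.83, 6.76, 5.67 and 5.96 on day 2. Of 31 growth factor genes and receptors, 15 rose and 7 fell (4 fell without day 2 constructs 3 and 4). Igfbp3, the main carrier of insulin-like growth factors, was 12.17, 12.31 and 12.59 on day 28, undetected on every day 2 array and 10.54 on average in cadaveric liver, which gives at least 161-fold higher on day 28. Wnt4, a ligand, rose by 2.31 to the cadaveric level, and Ccnd1, the cyclin that starts the cell cycle, rose by 2.89 and passed it by 1.62.

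Of 31 contractile and cytoskeletal genes, 20 rose and 2 fell (median change 0.68). Tnnt2, troponin T of the heart, was 14.21, 13.61 and 13.04 on day 28, against 4.48, 4.43, 4.51 and 4.45 on day 2, where no array detected it, and 4.83 on average in cadaveric liver. It was at least 386-fold higher on day 28. Of the other 4 cardiac and smooth muscle markers on the array, Myh6 and Actc1 were undetected on every construct array of both days. Myl7 (change -0.01) and Cnn1 (change 0.62) did not pass the test. Cnn1 was, however, detected on all 5 day 28 arrays and on no day 2 array. Its adjusted p was 0.0112 in a limma fit of the day 2 and day 28 constructs alone.

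Markers of matrix-forming cells were also higher. Some are members of the lists above, as Col1a2 is of the collagen list and Lum of the other matrix proteins. Part of their movement with these lists was therefore fixed in advance. All 6 stellate cell and myofibroblast markers on the array of 9 listed (Tagln, Des, Col1a1, Col1a2, Lum and Dcn) were higher on day 28, by a median of 4.07, and their summed linear level was 17800 to 34800 on day 28, against 171 to 387 on day 2 and 2730 to 5700 in cadaveric liver. 3 of the 6 were undetected on every day 2 array. On day 28 the sum was carried mainly by Col1a2, which averaged 14.14, against 11.64 in cadaveric liver. The summed level of 5 hepatocyte markers was 107000 to 111000 on day 28 and 88600 to 105000 on day 2, a sum carried by Alb, Ttr, Tf and Serpina1, whose levels near the brightest value leave little room for a change to show. The fifth, Hnf4a, fell by 0.96. Of 4 endothelial markers, Cdh5 and Vwf were undetected on all arrays of both days, Tek was detected on 2 of 5 day 28 arrays and on no day 2 array, and Lyve1 on 1 array of each day. How much of the matrix and TGF beta changes came with these cells was not tested.

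Several proteins exist in an adult liver form and a form of other or fetal tissues, and such pairs were listed together. Over 29 tested members 15 rose and 7 fell (4 fell without day 2 construct 1, without day 28 construct 1, or without either day 2 pair). Gja1, connexin 43, the gap junction protein of fibroblasts and stellate cells, was 12.79, 12.74 and 13.22 on day 28, against 6.31, 6.03, 4.67 and 5.02 on day 2. Gjb1, connexin 32 of hepatocytes, was 6.44, 7.02 and 7.01 on day 28, against 7.36, 7.51, 7.24 and 7.31 on day 2, a change of -0.53 that was lost without day 28 construct 1 (adjusted p = 0.157) or day 2 construct 1, 2 or 4 (0.0584, 0.0749 and 0.0517). Eno2, the neuronal enolase, was 10.35, 9.85 and 10.62 on day 28, against 5.36, 5.19, 5.20 and 5.38 on day 2, while Eno1 changed by 0.08 and did not pass the test. Ckb, the brain creatine kinase, was 8.49, 8.23 and 7.71 on day 28 and undetected on every day 2 array, at least 8.68-fold higher. Pkm, the pyruvate kinase of most other tissues, was undetected on every day 2 array and at least 1.42-fold higher on day 28, and Pklr, the liver pyruvate kinase, changed by 0.35 with overlapping days. Mat1a, the adult methionine adenosyltransferase, changed by 0.27 without passing the test and Mat2a, its counterpart in other tissues, fell by 0.75, a call lost without day 28 construct 3 (adjusted p = 0.0691) and without either day 2 pair (0.0792 and 0.0501).

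Among the 12 members of these pairs not otherwise described, 5 rose, 3 fell and 4 were not called. Aldoc, the brain aldolase, rose by 1.55 and Hk2, the hexokinase of muscle, by 1.11, both away from the cadaveric level. Cox6a2, a muscle subunit of cytochrome oxidase, rose by 1.18 away from it, with an adjusted p of 0.069 without day 28 construct 3 and 0.152 without day 2 constructs 3 and 4. Pygb, the brain glycogen phosphorylase, was 9.29, 9.37 and 8.91 on day 28, against 7.90, 8.06, 8.17 and 8.34 on day 2, away from a cadaveric mean of 7.395. Pygl, the liver phosphorylase, rose by 0.74 toward it, with an adjusted p of 0.0605 without day 28 construct 3 and 0.127 without day 2 constructs 3 and 4. Ugt1a1, which conjugates bilirubin, fell by 0.63 toward the cadaveric level. Gls2, the liver glutaminase, fell by 0.29 away from it, a call lost without day 28 construct 1, without day 2 construct 1, 3 or 4, and without day 2 constructs 3 and 4 (adjusted p = 0.0569 to 0.133). Fabp4, the fatty acid binding protein of fat cells, fell by 0.69 at an adjusted p of 0.0499, a call lost when any construct other than day 2 construct 4 or day 28 construct 3 was left out, and without day 2 constructs 1 and 2 (adjusted p = 0.0781 to 0.258). Gjb2 (0.17), Krt8 (0.07), Cox6a1 (-0.05) and Cox4i1 (-0.05) did not pass the test, though Gjb2, connexin 26, had an adjusted p of 0.0214 without day 2 constructs 1 and 2.

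The enolase Eno2 above and the phosphofructokinase forms below rose along with the RNA of other glycolysis and hypoxia genes. Of 27 genes of glycolysis and the hypoxia response, 18 rose and none fell (median change 1.07), and 15 of the changes led away from the cadaveric level. Pfkp, the platelet phosphofructokinase, was 10.89, 10.42 and 10.94 on day 28, against 6.64, 5.54, 5.13 and 5.43 on day 2, and passed a cadaveric mean of 6.83 by 3.92. Pfkm, the muscle form, rose by 1.54 and Aldoa, the muscle aldolase, by 1.21. Adm, adrenomedullin, a hypoxia responsive hormone, rose by 3.24. How much of these changes came with other cell types was not tested.

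Bile duct cell markers rose in all 4 genes on the array of 6 listed. Krt19, a keratin of bile ducts and mesothelium, was 9.08, 7.96 and 8.50 on day 28, was undetected on every day 2 array and averaged 7.98 in cadaveric liver, which gives at least 11.2-fold. Epcam, a surface protein of duct and progenitor cells, was 11.34, 11.36 and 11.35 on day 28, against 9.80, 9.49, 9.78 and 9.81 on day 2, and ended 2.17 above cadaveric liver. Their summed linear level, with Krt7 and Spp1, was 8520 to 14200 on day 28, against 796 to 969 on day 2 and 675 to 1270 in cadaveric liver. On day 28 the sum was carried mainly by Spp1, which averaged 12.85, against 4.70 on day 2 and 6.21 in cadaveric liver. Krt19 and Krt7 averaged 8.51 and 5.15 on day 28, near their cadaveric means of 7.98 and 4.92. Wt1, a mesothelial transcription factor, was undetected on every day 2 array and at least 1.90-fold higher on day 28, and Msln, another mesothelial marker, was undetected on every array of both days. The adherens protein Cdh1 rose by 1.01 to the cadaveric level.

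Of 29 chemokine and inflammation genes, 9 rose and 4 fell, and 7 fell without day 2 constructs 3 and 4 or when each array was centred on its median. Cxcl12, a chemokine that retains blood cells in tissue, was 12.96, 12.87 and 12.25 on day 28, against 5.03, 5.63, 5.23 and 5.08 on day 2, and reached the cadaveric mean of 12.53. RT1-DMb, which loads peptides on MHC class II, was 8.34, 8.73 and 8.99 on day 28, against 5.31, 5.32, 5.25 and 5.17 on day 2, and stopped 0.95 short of cadaveric liver. Casp1, the protease of the inflammasome, rose by 4.18 to the cadaveric level. Of 4 macrophage markers on the array, Ptprc and Marco were undetected on every construct array of both days, Cd14 did not pass the test (change -0.18), and Cd163 had an adjusted p of 0.0485, lost when any construct other than day 2 construct 1 or day 28 construct 1 was left out. The summed linear level of the 4 was 703 to 1280 on day 28 and 1060 to 1170 on day 2. Hba-a1, a hemoglobin chain of red cells, was undetected on day 28 and 8.83, 5.59, 4.58 and 5.28 on day 2.

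The MHC class I gene RT1-A2 separated the days completely. It was undetected on all 5 day 28 arrays, at 4.55, 4.52 and 4.55, against 12.13, 11.87, 12.10 and 11.93 on day 2, at least 140-fold lower. The same probe was also split among whole livers, with 11.34, 10.89, 5.05 and 11.68 in the 4 cadaveric livers and 10.82, 4.6, 11.67 and 11.87 in the 4 hepatocyte isolations. MHC class I genes of the rat differ between haplotypes and have near-identical copies, and which sequence a probe reports was not tested. The labels name no donor for a construct, so day and donor cannot be told apart for this gene. Of 25 interferon response genes, 13 rose and 1 fell (median change 0.65), but 8 rose without day 28 construct 2 and 6 without day 2 constructs 3 and 4. Mx1, an antiviral protein, was 9.88, 10.33 and 7.73 on day 28, against 6.0, 6.46, 5.16 and 5.88 on day 2, and 8.73, 5.39, 8.55 and 8.64 in cadaveric liver, where the second liver stood low.

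Lysosomal genes were more often higher on day 28. Of 36 tested, 20 rose and 5 fell (median change 0.56), with 13 changes toward and 10 away, and 2 or 3 fell without day 2 construct 4, without any 1 day 28 construct, or without either day 2 pair. Ctsd, cathepsin D, whose promoter is shown above, was 10.17, 9.93 and 10.17 on day 28, against 8.93, 8.63, 8.75 and 8.70 on day 2, and passed the cadaveric mean by 0.59. Npc2, which moves cholesterol out of lysosomes, rose by 1.45, Asah1, acid ceramidase, by 1.43 and Gusb, beta-glucuronidase, by 0.97. Tfrc, the transferrin receptor, fell by 1.22 and stayed 1.18 above cadaveric liver.

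Sgk1 and Fkbp5, known targets of the glucocorticoid receptor, were higher on day 28, in medium that held dexamethasone on both days. Sgk1, a kinase induced by steroids and serum, was 12.08, 11.86 and 11.26 on day 28, against 8.13, 7.92, 7.97 and 7.84 on day 2. Fkbp5, a brake on the glucocorticoid receptor, was 11.77, 12.10 and 11.86 on day 28, against 10.38, 10.58, 9.86 and 9.79 on day 2, and ended 3.03 above cadaveric liver. Over the clock and glucocorticoid list 5 of 21 genes rose and 4 fell, close to the share of all genes for those that rose. The clock repressor Cry1 fell by 1.51 and Nr1d1, a clock gene that CRY proteins repress, rose by 0.80, though Nr1d1 had an adjusted p of 0.167 in a fit of all 5 groups. Of 23 immediate early genes, which answer serum and stress within minutes, 10 rose and 7 fell, and 14 of the changes led toward cadaveric liver. Egr1 rose by 1.86 and Klf4 by 2.46. Fos was 6.23, 6.24 and 6.21 on day 28 and undetected on every day 2 array, at least 2.30-fold higher, and averaged 11.09 in isolated hepatocytes.

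Of 925 genes at least 2-fold higher on day 28, 728 (78.7%) were already called higher on day 15 than on day 2. Of 467 at least 2-fold lower, 434 (92.9%) were already called lower on day 15. These genes were picked for a large difference from the same day 2 constructs, in the same fit, so a high share is partly built in. The share of all genes called on day 15 against day 2 is not given here. Some day 28 levels, however, were well above those of day 15. Akr1c2, a steroid and drug reductase, was 9.48, 10.26 and 9.51 on day 28, against means of 4.87 on day 15 and 4.73 on day 2, and 5.21 in cadaveric liver. Gja5, connexin 40, a gap junction protein of arteries and heart, was 9.96, 9.0 and 8.54 on day 28, against means of 5.19 on day 15 and 5.54 on day 2. The proteoglycans decorin (Dcn) and lumican (Lum), of fibroblast matrix, were 7.11, 8.0 and 8.95 and 7.52, 7.63 and 7.83 on day 28, and averaged 4.52 and 4.92 on day 15, with every day 2 array below background, which gives at least 7.95-fold and 6.19-fold higher on day 28 than on day 2. For these 4 genes the lowest day 28 construct was above the day 15 and day 2 means by over 2.5. Lum was, however, detected on 3 of the 5 day 15 arrays, and Dcn on none of them. Prl8a2, a hormone of the prolactin family made by the decidua and placenta, was 10.27, 11.14 and 11.82 on day 28, averaged 6.33 on day 15 and was undetected on every day 2 array and in all 4 cadaveric livers, at least 66.1-fold higher on day 28 than on day 2.

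The remaining genes with the largest changes came from several lists or from none. Fam180a was 13.80, 13.05 and 12.86 on day 28, against 5.02, 4.55, 4.63 and 4.39 on day 2, and passed a cadaveric mean of 6.98 by 6.26. Lpl, lipoprotein lipase, which frees fatty acids from lipoproteins, was 13.15, 13.67 and 13.10 on day 28, against 5.74, 5.35, 5.11 and 4.84 on day 2, and passed a cadaveric mean of 8.62. Sparc, a collagen-binding matrix glycoprotein, rose by 8.04, Lgals1, galectin 1, by 7.68 and Gpc3, the cell surface proteoglycan glypican 3, by 7.66, all past the cadaveric level. Ccn3, a matricellular protein, was 13.62, 11.89 and 11.25 on day 28 and undetected on every day 2 array, at least 150-fold higher. Among the decreases, Ces1d, a carboxylesterase, was 6.98, 6.82 and 7.64 on day 28, against 10.77, 10.06, 11.28 and 11.14 on day 2, away from a cadaveric mean of 12.09. Mib1, a ubiquitin ligase that acts on Notch ligands, fell by 2.19 to the cadaveric level. Mettl7b, a thiol methyltransferase, fell by 3.76 away from the cadaveric level, and Prss32, a serine protease, fell by 3.25 to 2.99 below the cadaveric level, with no called gap on day 2. Unc119b, a trafficking protein of primary cilia, fell by 2.28 to the cadaveric level, and Tbx15, a developmental transcription factor undetected in all 4 cadaveric livers, fell by 2.27 and was still detected on all 5 day 28 arrays.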

How the data were processed

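The 24 arrays of 19 samples were RatRef-12 BeadChips. For every array the authors deposited a bead intensity per probe with its detection p-value, and log2 values made by background correction and quantile normalization in limma, which the submitters' processing notes name without a version. The deposited log2 values of the sample records were used. The intensity table served for detection, for the bounds and for an alternative computed with neqc. Its replicate numbers differ from the sample records on 14 arrays, within groups, so its arrays were matched by their values, which lay within 0.0262 of 1 array and at least 0.841 from any other. A further normalized table, whose 24 columns match no label, was not used. Of 22523 probes left after 842 control probes, 13793 named 13337 genes (13752 matched to RefSeq by gene identifier), and 8730 had no gene name. A probe was kept with a detection p-value under 0.05 on at least 3 of 16 construct arrays, and a gene was represented by its brightest kept probe.

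Arrays of 1 construct were averaged. Day 28 was set against day 2 in a limma fit (R 4.3.3, limma 3.58.1) of the 11 constructs of days 2, 15 and 28, and the gaps to cadaveric liver came from a fit of all 5 groups, each with Benjamini-Hochberg adjustment over all genes at a threshold of 0.05. Probes at or near background and near the brightest value, 14.96, understate changes. On simulated data with 200 changed genes of 8753 the procedure recovered 87% of 2-fold and 98% of 4-fold changes and called 11 unchanged genes. The simulation used independent normal noise and changed far fewer genes than were called here, so these rates need not hold for these data. Array number limits the precision.

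Members and gene lists were chosen with earlier results of these data known. The text names the 10 largest increases and decreases, the 5 largest in each toward or away class, all isoform pairs and albumin, and draws on the cell type markers and the 4 members of each list with the lowest adjusted p, of which not all are given. Creld2, Hspa5 and the genes whose promoters are printed were chosen after their values were seen. Promoters were read with Python 3.11.15 from RefSeq. Constructs with the same replicate number were not treated as pairs, because their deviations correlated at -0.278 to 0.268. Alternatives covered background correction, centring, detection filters, probe choice, the samples fitted, technical arrays, left-out constructs and a replicate block.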

Additional observations from a re-analysis of the deposited data

Results flagged for a closer look

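In 98 groups of 4 samples (48 genes described sample by sample and the distance from cadaveric liver, in the day 2 constructs and the cadaveric livers), 6 held a sample that stood apart from the other 3 by Dixon's criterion, where chance gives about 1 in 20. Among day 2 constructs, Cyp7b1 was highest in construct 1, at 5.08 against 4.49 to 4.54 in the others. Pck1 was lowest in day 2 construct 2, at 7.84 against 8.66 to 8.73, and Epcam was lowest in the same construct, at 9.49 against 9.78 to 9.81. All 3 genes kept the order of day 28 above every day 2 construct with that construct included. Among cadaveric livers, RT1-A2 was lowest in liver 3, at 5.05 against 10.89 to 11.68. Mx1 was lowest in liver 2, at 5.39 against 8.55 to 8.73, and Pfkp was lowest in the same liver, at 6.27 against 7.0 to 7.05.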

How the results depend on the processing

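Most counts kept within 1.5 times of their main value under the alternatives run. Without background correction 247 genes were at least 2-fold lower, against 467. With changes of at least 2-fold only, 446 genes were higher and toward cadaveric liver, 339 lower and toward, 469 higher and away, and 124 lower and away. Against a 1.5-fold minimum (limma's treat) 748 genes were called higher and 483 lower. The difference in distance from cadaveric liver, -0.0349 as a median, was 0.0744 as a root mean square (two-sided exact permutation p = 0.171 for each), and lay between -0.0405 and -0.0233 without 1 cadaveric liver. Leaving out 1 sample at a time gave 1688 to 1797 genes higher, 2402 to 2763 lower, 867 to 928 and 431 to 517 at least 2-fold, 757 to 848 and 1548 to 1739 toward, and 794 to 977 and 656 to 922 away.

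Without day 2 constructs 1 and 2, an alternative chosen after seeing the data, 4166 genes were called, 3951 of them among the main 4806, and without constructs 3 and 4 there were 3893, with 3731 shared. The replicate block called 4401 genes (4308 shared) and, of the named genes, lost Gjb1 (adjusted p = 0.0781), Gls2 (0.0503), Cox6a2 (0.0547) and Cd163 (0.1000). Among named genes no alternative turned a called direction. The BeadChip as a block was not run, since the files give no chip. Probes near background, among them 642 genes undetected on every day 2 array and 146 on every day 28 array, limit the folds.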

Other observations

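Probes without a gene name were examined in the same way. Of 3507 such probes that passed the same detection filter, limma called 1514 (43.2%, against 54.9% of named genes) between day 28 and day 2, 471 higher and 1043 lower, with 197 and 154 changed at least 2-fold and a median change of -0.19.

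For 185 genes more than 1 probe was kept, and in 6 of them (Ccpg1, Gdf1, Manba, Rarb, U2surp and Zmynd11) 2 probes were called in opposite directions. Among genes that the naming rule took, probes also differed in size for Serpina6 (-3.94 and -0.34), Reck (5.27 and -0.05), Pltp (0.90 and 3.48) and albumin (0.01 and 0.26).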
